A study of Mus musculus with 27 samples.

Results

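The alpha1 subunits are the pore-forming proteins of voltage-gated calcium channels. The 8 rows of the deposited expression table named cacna1a, cacna1b, cacna1c, cacna1d, cacna1e, cacna1g, cacna1h and cacna1i, as the table spells them, were taken, of 26264 gene symbols in all. They are written Cacna1a to Cacna1i below. RNA had been sequenced from a block of cortex of each hemisphere of female mice of 16 weeks that carried the 5xFAD transgenes. These include human APP with the Swedish, Florida and London mutations and are driven by the neuronal Thy1 promoter, as a model of amyloid pathology. Every mouse of every group carried them, and no wild-type mouse was used here. A volume of 500 nL of vehicle (DMSO and sulfobutylether beta-cyclodextrin in saline), or of the retromer-stabilising compounds R33 or R55 at 10 mM in that vehicle, had been injected into the parietal association cortex of one hemisphere 24 h before. The retromer is a protein complex that sorts cargo out of endosomes, and both compounds are thiophene thioureas. Libraries came from 4 vehicle-treated mice (J, L, M and AH), 5 R33-treated mice (K, N, O, AD and AE) and 5 R55-treated mice (P, Q, R, AA and AB). The injected and the contralateral hemisphere were separate libraries, 27 in all, since mouse AE was represented by its injected hemisphere only.

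An alpha1 subunit holds the voltage sensor and the calcium pore in a single chain, while the beta and alpha2delta subunits bring the high-voltage-activated channels to the membrane and tune their gating. The Cav1 or L-type channels of neurons sit mainly on cell bodies and dendrites and couple activity to transcription. The Cav2 channels feed calcium to the release machinery of nerve terminals, and the low-voltage-activated Cav3 or T-type channels support burst firing.

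Values are FPKM, the fragments counted on a gene scaled to its length and to all fragments counted in the library. Levels can thus be set side by side between genes, given the lengths used. Each library held 15932196 to 38077026 counted fragments (median 27441308), which placed between 642 fragments (Cacna1d) and 8581 fragments (Cacna1a) on a member in a single library. All 8 members had a mean of at least 1 FPKM and were among the 12976 genes tested. The Pearson correlation between libraries ran from 0.9457 to 0.9965 over these genes. The 5 neuron markers Rbfox3, Snap25, Syt1, Tubb3 and Map2 summed to between 1970 and 2780 FPKM per mouse. Hippocampus and choroid plexus markers, which cortex should hold little of, were also above 0 and differed widely between mice. Mouse AD of the R33 group stood apart in several members, and its influence is given beside the results. Fewer cells of a type and less RNA per cell cannot be told apart in such blocks.

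All 8 members are long genes on 8 different chromosomes (GRCm39, GENCODE). Cacna1c is at chr6:118564201-119173851 and Cacna1d at chr14:29761896-30213412, both on the minus strand. Cacna1a lies at chr8:85065224-85367997 on the plus strand, Cacna1b at chr2:24493899-24653221 and Cacna1e at chr1:154266477-154760247 on the minus strand. Cacna1g is at chr11:94299217-94365230 and Cacna1h at chr17:25593259-25652764, on the minus strand, and Cacna1i at chr15:80171436-80282482 on the plus strand. Their lengths, as recovered from the FPKM values, ran from 7929 bp (Cacna1a) to 14774 bp (Cacna1c), with a median of 9564 bp against 3149 bp over all tested genes, and 94% of tested genes were shorter than the shortest member.

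The promoters of 3 members are shown because they gave different treatment differences below: Cacna1e the largest, Cacna1d a smaller one with little spread, and Cacna1i almost none. Each run covers 250 bases before to 50 bases after a start site (RefSeq, GRCm38.p6), on the strand of the gene, and capitals mark matches to a searched motif. This build differs from that of the gene positions above, and no coordinates were converted. RefSeq entries were found for 5 of the 8 members, Cacna1b, Cacna1c, Cacna1d, Cacna1e and Cacna1i. Cacna1e is from chr1:154725871-154726170 (minus strand), Cacna1d, at the more GC-rich of its start sites, from chr14:30353437-30353736 (minus strand) and Cacna1i from chr15:80286988-80287287 (plus strand).
Cacna1e: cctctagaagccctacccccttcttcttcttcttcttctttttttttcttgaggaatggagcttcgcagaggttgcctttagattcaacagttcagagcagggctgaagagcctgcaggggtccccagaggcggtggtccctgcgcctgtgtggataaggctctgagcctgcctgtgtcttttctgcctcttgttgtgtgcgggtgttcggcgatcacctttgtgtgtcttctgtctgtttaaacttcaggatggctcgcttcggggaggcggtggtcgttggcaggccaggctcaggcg
Cacna1d: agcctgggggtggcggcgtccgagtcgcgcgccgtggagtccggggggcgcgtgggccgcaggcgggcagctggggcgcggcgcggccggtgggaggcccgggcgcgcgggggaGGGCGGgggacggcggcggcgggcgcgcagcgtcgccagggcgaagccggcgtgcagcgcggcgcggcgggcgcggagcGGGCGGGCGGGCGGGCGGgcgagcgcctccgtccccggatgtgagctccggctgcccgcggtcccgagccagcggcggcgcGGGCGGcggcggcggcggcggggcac
Cacna1i: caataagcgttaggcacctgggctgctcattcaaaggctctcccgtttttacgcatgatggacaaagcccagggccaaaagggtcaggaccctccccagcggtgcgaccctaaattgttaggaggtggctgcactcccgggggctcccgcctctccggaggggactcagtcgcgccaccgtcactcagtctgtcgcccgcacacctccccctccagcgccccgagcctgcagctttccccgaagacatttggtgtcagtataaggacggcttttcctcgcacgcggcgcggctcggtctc
The motifs were searched on both strands with overlapping matches counted: the GC box GGGCGG, the cAMP response element TGACGTCA, the E-box CACGTG, the TATA box TATAAA and TTCAGCACC, the left part of the RE1 silencer element. They occur in 35.7%, 1.79%, 7.15%, 13.6% and 0.371% of 32851 promoters of this length. The Cacna1d window shown held 6 GC boxes at a GC content of 87.3%, whereas the window at its other start site (chr14:30491107-30491406, minus strand) held 0 GC boxes and 3 TATA boxes at 40.3%. The windows of Cacna1e (GC 55.3%) and Cacna1i (62.7%) held none of the searched letters, against a median GC content of 52.7% over all promoters.

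At the lengths used, the highest alpha1 level in these blocks was that of Cacna1a, at 22.7 ± 3.0 FPKM (SD over 14 mice). Cacna1a encodes the P/Q-type channel of fast transmitter release. Cacna1i, a T-type channel found mainly in brain, followed at 14 ± 2.57 FPKM. Cacna1b, the N-type channel of terminals, measured 11.9 ± 1.9 FPKM and Cacna1e, the R-type channel, 10.7 ± 3.06 FPKM. The T-type genes Cacna1g and Cacna1h measured 9.62 ± 1.55 and 5.82 ± 1.49 FPKM. The L-type genes were lowest, with Cacna1c at 4.73 ± 0.716 and Cacna1d at 3.85 ± 0.524 FPKM. Neighbours in this order were compared by a two-sided exact sign-flip permutation test over the 14 mice, on log2(FPKM + 1), adjusted over 7 pairs. The order of 5 of the 7 pairs passed. It also rests on the length each gene was divided by, which a test over mice does not cover. Cacna1a was at 7929 bp where its merged GENCODE exons hold 19106 bp, and Cacna1b at 9776 bp against 9998 bp. Cacna1e was at 12697 bp against 25632 bp, Cacna1c at 14774 bp against 22346 bp and Cacna1d at 9352 bp against 15191 bp. The first rank of Cacna1a would thus not hold for every choice of length. Cacna1a exceeded Cacna1i in 14 of 14 mice, by 0.67 on the log2 scale (exact adjusted p = 0.000427, from the smallest p that 14 mice allow). Cacna1b and Cacna1e did not differ beyond their spread (difference 0.17, 11 of 14 mice, exact adjusted p = 0.0503), and neither did Cacna1e and Cacna1g (difference 0.11, 9 of 14 mice, exact adjusted p = 0.384). With treatments pooled, Cacna1e had the widest range over mice, 3.0-fold, against 1.57-fold for Cacna1a. It ran from R33 mouse AD (5.28 FPKM) to vehicle mouse M (15.9 FPKM), so it includes differences between treatments. Within treatments Cacna1e measured 14.1 ± 2.07 (vehicle), 10.3 ± 2.93 (R33) and 8.52 ± 0.923 FPKM (R55). Cacna1i measured 14.3 ± 3.18, 14.1 ± 2.89 and 13.7 ± 2.31 FPKM.

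**Figure D1:**
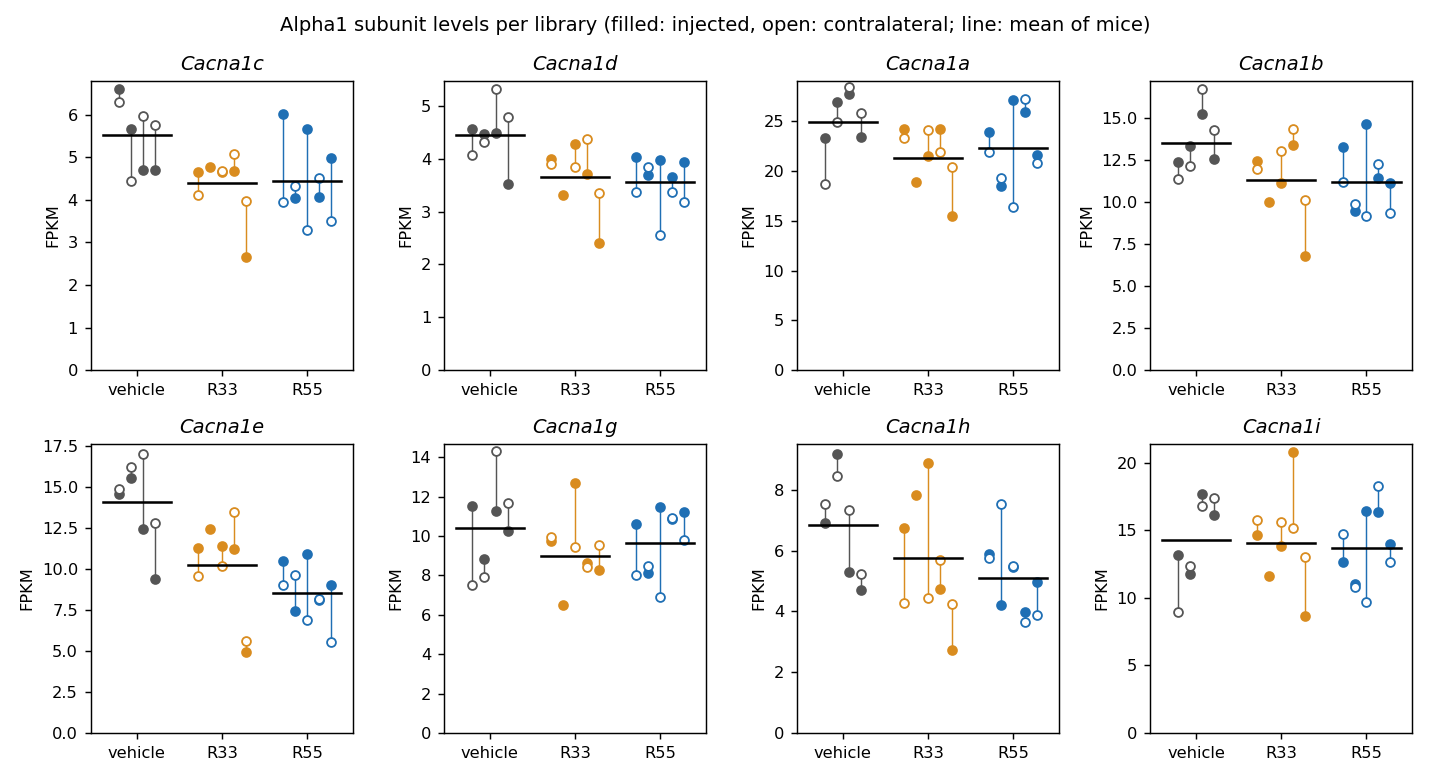
FPKM of the 8 alpha1 subunits in each of the 27 libraries, by treatment. Filled points are injected and open points contralateral hemispheres, joined within a mouse, and bars are the mean over mice. Cacna1e lies between 11.1 and 15.9 FPKM in vehicle mouse means and between 7.27 and 9.77 FPKM after R55, while the treatments overlap for Cacna1i.

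The comparison of R55 with vehicle asked what retromer stabilisation changes in this cortex. All 8 members had lower estimates after R55, but none passed the test over all genes. Cacna1e gave the largest difference, a log2 fold change of -0.67, or 0.629 times the vehicle level on the scale of FPKM + 1. The L-type genes Cacna1c and Cacna1d and the N-type gene Cacna1b were estimated lower by 0.25 to 0.27 on the log2 scale, and Cacna1a, Cacna1g and Cacna1i differed least. The test was limma on log2(FPKM + 1), in a model of treatment plus hemisphere over the 27 libraries, adjusted by Benjamini-Hochberg over all 12976 genes. At an adjusted p under 0.05, 0 of 8 members were called, as 0.00771% of all genes were. At an unadjusted p under 0.05, 5 of 8 members were lower and 0 higher, where 3.74% of all genes were lower and 4.71% higher. The median log2 fold change of the members was -0.26, against 0.03 over all tested genes. With a modelled correlation between the libraries of a mouse as replicate block, 3 members (Cacna1c, Cacna1d and Cacna1e) were lower at an unadjusted p under 0.05, against 1.99% of all genes. The smallest adjusted p of a member was then 0.873. Without R55 mouse AB the 5 members became 3.

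Cacna1e was the member with the clearest separation. In the contralateral hemisphere of the vehicle mice it measured 14.9 (J), 17.0 (L), 16.2 (M) and 12.8 FPKM (AH), and in the injected hemisphere 14.6, 12.4, 15.5 and 9.41 FPKM. After R55 it measured 9.05 (P), 6.90 (Q), 8.14 (R), 9.63 (AA) and 5.55 FPKM (AB) in the contralateral and 10.5, 10.9, 8.12, 7.42 and 9.0 FPKM in the injected hemisphere. The groups did not overlap in the contralateral hemisphere, while in the injected hemisphere vehicle mouse AH lay below R55 mice P and Q. Averaged over hemispheres, the 4 vehicle mice measured 14.1 ± 2.07 FPKM (SD) and the 5 R55 mice 8.52 ± 0.923 FPKM, and every R55 mouse was below every vehicle mouse. The log2 fold change was -0.67 (SE 0.153, 95% interval -0.98 to -0.35, limma adjusted p = 0.131), and by its p-value the gene stood at rank 17 of all genes. The labels name 9 mice by one letter and 5 by a pair of letters. Among the one-letter mice Cacna1e measured 15.1 ± 0.652 FPKM with vehicle (n = 3) and 8.93 ± 0.82 FPKM with R55 (n = 3), and among the others 11.1 FPKM in vehicle mouse AH against 8.52 and 7.27 FPKM in R55 mice AA and AB.

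The call of Cacna1e changed with the libraries in the fit. With only the compared treatments in the fit it was called at an adjusted limma p of 0.047 (0.0926% of all genes were called), and with only one-letter mice at an adjusted limma p of 0.00947 (0.0385%), where its log2 fold change was -0.71. Leaving out R33 mouse AD, which left the estimate at -0.67 and lowered its SE to 0.108, gave an adjusted limma p of 0.00676 (0.386%). No other member was called in these 3 fits. They hold no replicate block, so both hemispheres of a mouse count as separate libraries. With the block, over all 27 libraries, the adjusted limma p of Cacna1e was 0.873. Leaving out each mouse in turn moved the log2 fold change of Cacna1e between -0.77 and -0.61.

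The L-type genes differed less but with little spread. Cacna1c, the main neuronal L-type subunit, had mouse means of 6.45 (J), 5.33 (L), 5.05 (M) and 5.23 FPKM (AH) with vehicle and of 4.98 (P), 4.48 (Q), 4.28 (R), 4.19 (AA) and 4.24 FPKM (AB) with R55. The groups did not overlap, though R55 mouse P (4.98 FPKM) came close to vehicle mouse M (5.05 FPKM). The log2 fold change was -0.27 (SE 0.0986, limma adjusted p = 0.552). Without vehicle mouse J it was -0.20 and no longer under an unadjusted p of 0.05. Cacna1d, the L-type subunit that opens at lower voltages, measured 4.32 (J), 4.90 (L), 4.39 (M) and 4.16 FPKM (AH) with vehicle and 3.71 (P), 3.27 (Q), 3.52 (R), 3.77 (AA) and 3.56 FPKM (AB) with R55. Here too every R55 mouse was lower than every vehicle mouse. The log2 fold change was -0.25 (SE 0.08, limma adjusted p = 0.515), and the unadjusted p stayed under 0.05 in 14 of 14 fits with one mouse left out. Mouse means of 3 of the 8 members, Cacna1c, Cacna1d and Cacna1e, were all below vehicle after R55, as were those of 1.43% of all genes. That share holds genes of every length and was not taken for genes as long as the members. Of the 720 other tested genes in the members' length range, 88.9% had a lower estimate after R55.

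Among the other Cav2 genes, Cacna1b averaged 13.5 ± 1.76 FPKM with vehicle and 11.2 ± 1.15 FPKM with R55, with overlapping mice. The vehicle mice measured 11.9 (J), 16 (L), 12.8 (M) and 13.4 FPKM (AH), and the R55 mice 12.3 (P), 11.9 (Q), 11.9 (R), 9.69 (AA) and 10.3 FPKM (AB). Its log2 fold change was -0.26 (SE 0.108, limma adjusted p = 0.557). Without vehicle mouse L, the highest of them, it was -0.18 and not under an unadjusted p of 0.05. Cacna1a averaged 24.9 ± 2.97 and 22.3 ± 2.8 FPKM (log2 fold change -0.16, limma adjusted p = 0.621), and its R55 mice, 18.9 to 26.6 FPKM, overlapped the vehicle mice, 21.0 to 28.1 FPKM. Of the T-type genes, Cacna1h, which is prominent in sensory neurons as well as in brain, averaged 6.83 ± 1.62 FPKM with vehicle and 5.08 ± 0.913 FPKM with R55, a log2 fold change of -0.36 (SE 0.158, limma adjusted p = 0.571). The vehicle mice measured 7.22 (J), 6.31 (L), 8.82 (M) and 4.97 FPKM (AH), and the R55 mice 5.82 (P), 5.47 (Q), 3.82 (R), 5.86 (AA) and 4.43 FPKM (AB). Mouse AH lay below 3 of the R55 mice, and without mouse M the log2 fold change was -0.24 and not under an unadjusted p of 0.05. Cacna1g averaged 10.4 ± 1.91 and 9.64 ± 1.05 FPKM (log2 fold change -0.09) and Cacna1i 14.3 ± 3.18 and 13.7 ± 2.31 FPKM (-0.05). The 95% intervals of Cacna1a (-0.36 to 0.04), Cacna1g (-0.32 to 0.14) and Cacna1i (-0.34 to 0.23) included 0.

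**Figure D2:**
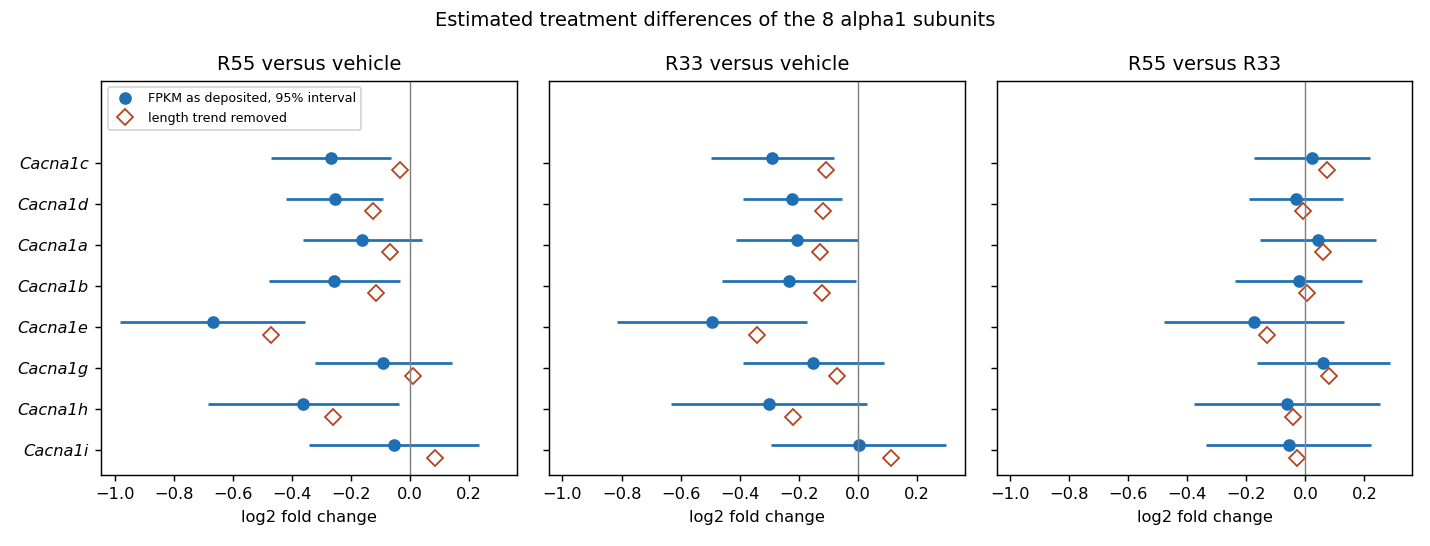
Log2 fold changes of the 8 subunits (blue, with 95% intervals from limma) for R55 against vehicle, R33 against vehicle and R55 against R33, ordered Cav1, Cav2, Cav3. Open diamonds give the value after the trend on gene length was removed from each library, which for Cacna1e is -0.47 in place of -0.67 after R55.

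The summed FPKM of the 8 genes was 94.0 ± 8.15 with vehicle, 79.7 ± 11.7 with R33 and 78.4 ± 6.36 with R55 (SD over mice). The Cav2 genes made up 55.9, 53.7 and 53.5% of it and the Cav3 genes 33.5, 36.2 and 36.2%. The Cav1 genes kept 10.7, 10.1 and 10.3%. Cacna1e alone made up 15.1 ± 2.41% of the sum with vehicle, 12.7 ± 2.85% with R33 and 10.9 ± 1.25% with R55, and these shares overlapped between vehicle (12.2 to 17.1%) and R33 (8.64 to 16.5%) but not between vehicle and R55 (9.41 to 12.1%).

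Gene length moved with the treatment difference across the whole table. Over all tested genes the Spearman correlation of length with the log2 fold change was -0.494 for R55 and -0.46 for R33 against vehicle, a description across genes that share the same libraries. Of the 720 other tested genes between 7929 and 14774 bp, 88.9% had a lower estimate after R55, with a median of -0.13, and 27.2% were lower at an unadjusted p under 0.05. For R33 the median was -0.10 and 15.7% were lower at that threshold. When the length trend was removed from each library, the members' median for R55 was -0.093 in place of -0.26, and 2 of 8 members, Cacna1d and Cacna1e, were lower at an unadjusted p under 0.05 (3.61% of all genes). Cacna1e then had a log2 fold change of -0.47 (limma adjusted p = 0.292) and Cacna1d one of -0.12 (limma adjusted p = 0.734). The value of Cacna1c moved from -0.27 to -0.04 and that of Cacna1b from -0.26 to -0.12. Cacna1i and Cacna1g had estimates above 0, 0.09 and 0.01.

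**Figure D3:**
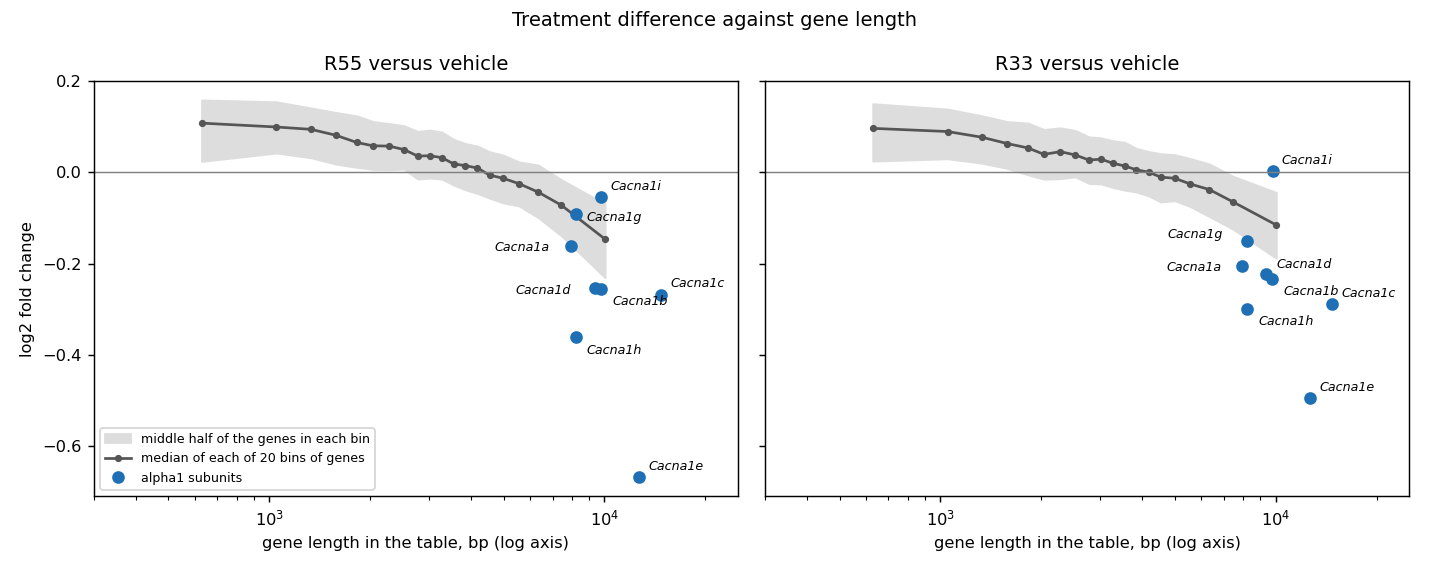
Log2 fold change against gene length in the table (log axis) for R55 and R33 against vehicle. The grey line joins the medians of 20 equally filled bins of tested genes, the band holds the middle 50% of each bin, and blue points are the alpha1 subunits, of which Cacna1e lies farthest below the line.

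Markers of neighbouring tissue were set beside the members, mouse by mouse. All 4 hippocampus markers (Prox1, Spink8, Fibcd1 and Wfs1) had lower estimates after R55, with a median log2 fold change of -0.50, and 0 of 4 were under an unadjusted p of 0.05. Their summed level ran from 31.8 to 143 FPKM in vehicle mice, from 28.5 to 86.3 FPKM in R33 mice and from 35.6 to 61.3 FPKM in R55 mice, and no marker was at 0. Cacna1h was highest in vehicle mouse M (8.82 FPKM) and R33 mouse AE (7.84 FPKM), which also had the highest marker sums, and lowest in R33 mouse AD (3.49 FPKM), which had the lowest sum. Cacna1e was lowest in mouse AD too (5.28 FPKM). Mice M, AE, O and J had the highest sums and the highest Cacna1h, and mice R, AB, AH and AD the lowest of both. Between these the order differed. R33 mouse N had a sum of 63.1 FPKM and 5.2 FPKM of Cacna1h, vehicle mouse L 46.0 and 6.31 FPKM. For Cacna1e, vehicle mouse AH had a lower sum than every R55 mouse but a higher level (11.1 FPKM) than any of them. R33 mouse O, with a sum of 84.7 FPKM, had less Cacna1h (6.65 FPKM) than vehicle mouse J (7.22 FPKM). The median sum was 59.5 FPKM with vehicle and 52.7 FPKM with R55. Mouse by mouse, the sums were 73.1 (J), 46.0 (L), 143 (M) and 31.8 FPKM (AH) with vehicle and 52.7 (P), 61.3 (Q), 36.4 (R), 53.6 (AA) and 35.6 FPKM (AB) with R55. The 4 choroid plexus markers also had lower estimates after R55 (median -0.51, 0 of 4 under an unadjusted p of 0.05), with sums of 12.1 to 573 FPKM in vehicle, 11.9 to 893 FPKM in R33 and 5.34 to 110 FPKM in R55 mice. Of 5 neuron markers, 0 were under an unadjusted p of 0.05 and the median was 0.10. The part of these tissues in the members' values was not tested.

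**Figure D4:**
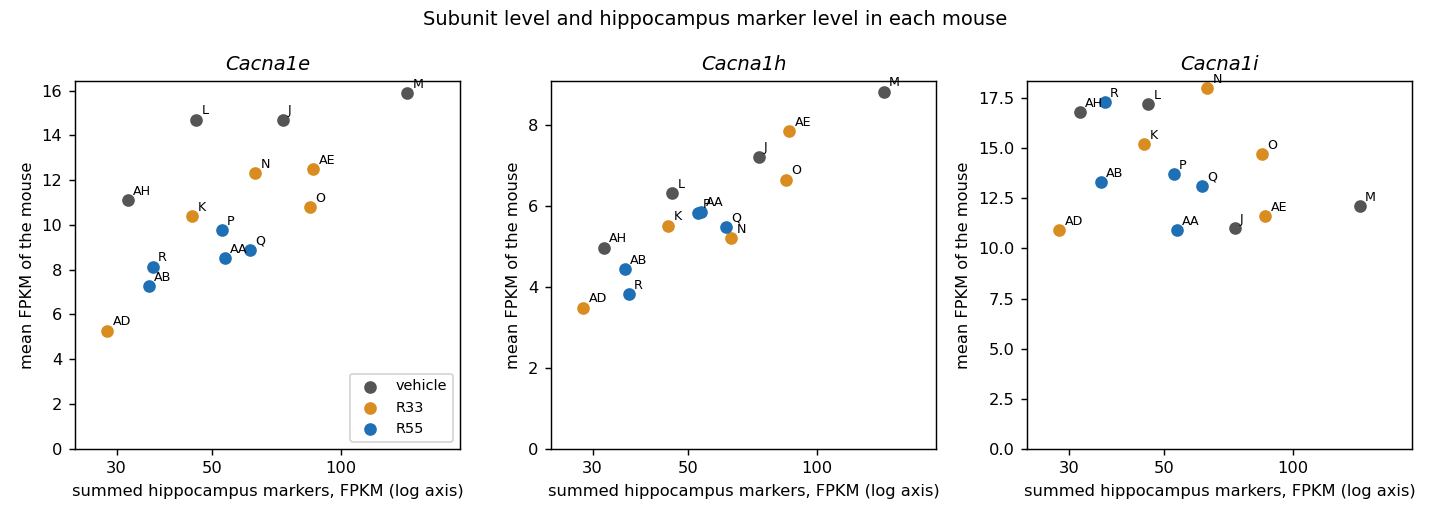
Mean FPKM of Cacna1e, Cacna1h and Cacna1i in each mouse against the summed FPKM of 4 hippocampus markers (log axis), with mice named by their labels and coloured by treatment. Vehicle mouse M has the highest marker sum (143 FPKM) and the highest Cacna1e and Cacna1h, and R33 mouse AD has the lowest sum (28.5 FPKM) and the lowest level of both.

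After R33, 7 of 8 members had lower estimates, with a median log2 fold change of -0.23 (0.02 over all genes). At an adjusted p under 0.05, 0 of 8 members and 0% of all genes were called. At an unadjusted p under 0.05, 4 members (Cacna1b, Cacna1c, Cacna1d and Cacna1e) were lower, against 2.68% of all genes. With the replicate block these were 3, Cacna1c, Cacna1d and Cacna1e (1.12% of all genes), and with the length trend removed 2, Cacna1d and Cacna1e (2.47%). The 4 members became 2 without vehicle mouse L or R33 mouse AD and 6 without R33 mouse O. This comparison shares its 4 vehicle mice with the comparison of R55, so the values stand side by side and are not independent.

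Cacna1e measured 11.3 (K), 11.2 (N), 11.4 (O), 4.96 (AD) and 12.5 FPKM (AE) in the injected hemisphere after R33, and 9.57 (K), 13.5 (N), 10.2 (O) and 5.59 FPKM (AD) in the contralateral hemisphere. Mouse AD was the lowest in both hemispheres, and the mouse means, 5.28 to 12.5 FPKM, overlapped those with vehicle. The log2 fold change was -0.50 (95% interval -0.82 to -0.17, limma adjusted p = 0.834), and -0.28 without mouse AD. Cacna1c and Cacna1d were below every vehicle mouse in all 5 R33 mice, as 0.378% of all genes were. That share too holds genes of every length, while 85% of the 720 other genes in the members' length range had lower estimates after R33. The R33 mice measured 4.38 (K), 4.88 (N), 4.66 (O), 3.31 (AD) and 4.77 FPKM (AE) of Cacna1c, a log2 fold change of -0.29 (limma adjusted p = 0.834). Of Cacna1d they measured 3.95 (K), 4.04 (N), 4.07 (O), 2.88 (AD) and 3.31 FPKM (AE), a log2 fold change of -0.22 (limma adjusted p = 0.834). Without mouse AD these were -0.20 and -0.15, and the latter was no longer under an unadjusted p of 0.05. Cacna1i differed by 0.00 on the log2 scale (95% interval -0.29 to 0.30), with 14.1 ± 2.89 FPKM.

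R55 and R33 were given at the same concentration, volume and time, and formed the only pair of compounds. No member differed between them at an adjusted p under 0.05 (0% of all genes). At an unadjusted p under 0.05, 0 members were lower after R55 (0.416% of all genes) and 0 higher (0.732%). The largest difference was that of Cacna1e, -0.17 on the log2 scale (95% interval -0.48 to 0.13, limma adjusted p = 1). The intervals were -0.19 to 0.13 for Cacna1d, -0.18 to 0.22 for Cacna1c and -0.38 to 0.25 for Cacna1h. A missed threshold does not show that the compounds act alike. Mouse AD weighed on the Cacna1e value. Without it the R55 minus R33 difference was -0.39 (95% interval -0.62 to -0.16, limma adjusted p = 0.379), and among one-letter mice -0.30 (95% interval -0.51 to -0.089, limma adjusted p = 0.939). In the comparison over all mice the 4 choroid plexus markers had lower estimates after R55 than after R33, 3 of them at an unadjusted p under 0.05 (median -1.02), and so had the 5 striatum markers, 0 of them at that threshold (median -0.50). Their part in the members' values was not tested.

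The hemispheres were compared to see whether the injected side differed from the other. Over all treatments, 0 members were called at an adjusted p under 0.05 (0% of all genes), and 0 were lower (2.01% of all genes) or higher (1.46%) on the injected side by the unadjusted p. The log2 differences ran from -0.00 (Cacna1b) to 0.08 (Cacna1g). With the mouse as a fixed block in the 13 mice with both hemispheres, that of Cacna1g was 0.12 (limma adjusted p = 0.874) and that of Cacna1e 0.01.

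The estimated R55 differences were larger in the contralateral than in the injected hemisphere for 7 of 8 members, but the test of that difference called none (0 of 8 at an adjusted p under 0.05, 0% of all genes). At an unadjusted p under 0.05, 0 members were lower (1.24% of all genes) or higher (0.601%) in this test. With the length trend removed, the contralateral R55 estimate was the lower one for Cacna1b, Cacna1c, Cacna1d, Cacna1e and Cacna1g. It was not for Cacna1a, Cacna1h and Cacna1i. In the contralateral hemisphere alone 4 members, Cacna1b, Cacna1c, Cacna1d and Cacna1e, had lower values with R55 by the unadjusted p (4.53% of all genes), with Cacna1e at -0.89 (limma adjusted p = 0.318) and Cacna1d at -0.40 (limma adjusted p = 0.318), so that 0 members passed the adjusted test (0.0231% of all genes). Without R33 mouse AD 2 members were called, Cacna1e (limma adjusted p = 0.00823) and Cacna1d (limma adjusted p = 0.0323), with 0.695% of all genes, and with only one-letter mice 1, Cacna1e (limma adjusted p = 0.0219), with 0.0154%. With the length trend removed, contralateral Cacna1d (-0.20) and Cacna1e (-0.60) were still under an unadjusted p of 0.05. Cacna1b (-0.14) and Cacna1c (-0.09) were not. In the injected hemisphere 1 member, Cacna1e, was lower (0.486% of all genes), at -0.45 (limma adjusted p = 1), and none was without vehicle mouse J, L or M, R33 mouse K or O, or R55 mouse R, AA or AB. All 5 oligodendrocyte markers had higher estimates after R55 in the contralateral hemisphere (median 0.54, 1 of them at an unadjusted p under 0.05) and lower ones in the injected hemisphere (median -0.23), a median difference of -0.70 between hemispheres with 0 at that threshold. Their part in the members' values was not tested. The difference between hemispheres was 0.44 for Cacna1e (95% interval -0.19 to 1.07, limma adjusted p = 0.999) and 0.29 for Cacna1d (95% interval -0.019 to 0.60, limma adjusted p = 0.999). With the replicate block the latter was under an unadjusted p of 0.05 (limma adjusted p = 0.796), and without R33 mouse AD, which left both estimates in place, so were both genes (limma adjusted p = 0.983). After R33, 3 members were lower in the injected hemisphere (Cacna1b, Cacna1c and Cacna1d, 0.724% of all genes) and 2 in the contralateral hemisphere (Cacna1e and Cacna1h, 0.963%) at an unadjusted p under 0.05. With the replicate block both counts became 1. With a mouse left out, the injected count ran from 0 (without vehicle mouse M or R33 mouse AD) over 1 (without vehicle mouse L or R33 mouse AE) to 4, and the contralateral count from 1 (without vehicle mouse L or R33 mouse K or O) to 4 (without R33 mouse N).

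Most members varied together across the mice of all treatments, while Cacna1h had no positive r with the other T-type genes. Of 28 pairs, 25 had a positive Pearson r over the 14 mouse means of log2(FPKM + 1), pooled over treatments. Differences between treatments thus enter r, and the permutation test does not set them apart. By r, 14 passed a permutation test adjusted over the 28 pairs, and 10 of them passed by Spearman's rho too. Adjusted p-values below are those of r unless said otherwise. The highest r was that of Cacna1c with Cacna1e (r = 0.87, rho = 0.88, permutation adjusted p = 0.00121), followed by Cacna1a with Cacna1b (r = 0.87, rho = 0.82, permutation adjusted p = 0.00121) and Cacna1e with Cacna1h (r = 0.85, rho = 0.78, permutation adjusted p = 0.00121). Without the 2 mice farthest from the median these were 0.82, 0.75 and 0.71, and within the 9 one-letter mice 0.76, 0.62 and 0.81. Cacna1b with Cacna1c (r = 0.67, rho = 0.75, permutation adjusted p = 0.0257) rested on mice AD and L, with 0.41 without them and 0.24 within one-letter mice. The r of Cacna1h was -0.36 with Cacna1g (permutation adjusted p = 0.276) and -0.24 with Cacna1i (permutation adjusted p = 0.485). Cacna1g and Cacna1i had r = 0.62 (permutation adjusted p = 0.0316) and rho = 0.56 (permutation adjusted p = 0.083 for rho). Their r was 0.54 without mice AE and L and 0.51 within one-letter mice. Groups of 4 or 5 mice are too small for values within a treatment. Correlations over mouse means were not repeated with the length trend removed, so its part in them was not tested. Over the 27 libraries, the highest r of Cacna1c with another member was 0.82 (Cacna1d), and 0.33 (Cacna1e) with the trend removed. That of Cacna1d, with Cacna1e, was 0.83 and then 0.545. Cacna1a with Cacna1b had 0.87 and then 0.76, and Cacna1h with Cacna1e 0.78 and then 0.71.

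**Figure D5:**
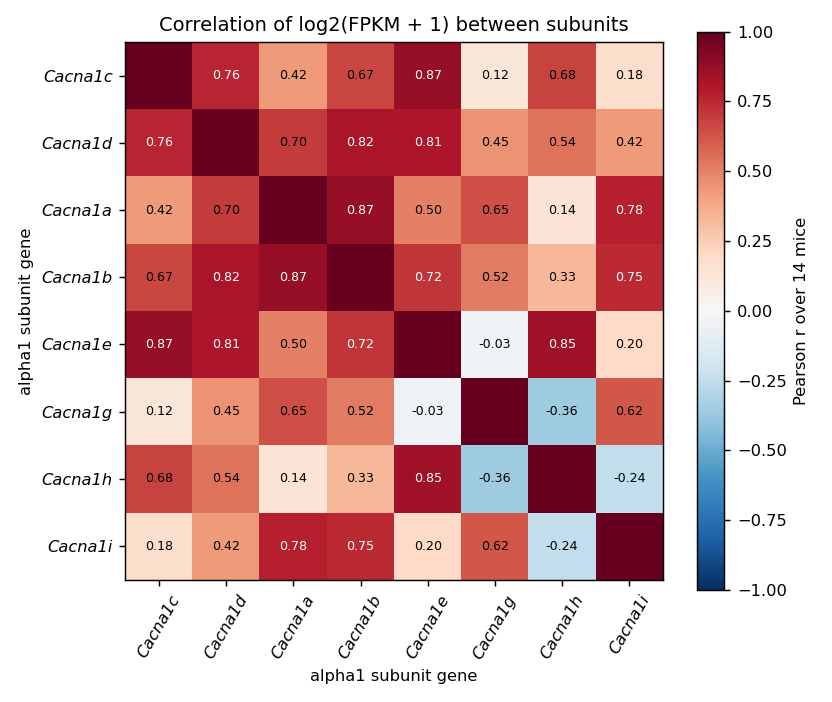
Pearson r between the 8 subunits over 14 mouse means of log2(FPKM + 1), in the order Cav1, Cav2, Cav3. Cacna1c, Cacna1d, Cacna1b and Cacna1e have r of 0.67 or more with each other, and Cacna1h has negative r with Cacna1g and Cacna1i.

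The genes most like the members' mean over the 27 libraries were Zzef1 (r = 0.96), Hcfc1 (0.93), Atp8a1 (0.93), Tmem131 (0.93) and Unc79 (0.93), with lengths from 6548 bp (Tmem131) to 11150 bp (Zzef1). After removal of the length trend they were Ptprn (0.83), Cnnm1 (0.82), Pcdhga9 (0.80), L1cam (0.78) and Lrfn5 (0.78). For single members, the closest gene was Unc13a, a priming factor of synaptic vesicles, for Cacna1a (0.94), Nbea for Cacna1e (0.92), Slit1 for Cacna1h (0.96) and Lmtk2 for Cacna1i (0.92). Cacna1b was closest to Tecpr2 (0.93), Cacna1c to Nexmif (0.86), Cacna1d to Zzef1 (0.92) and Cacna1g to Magi1 (0.79). With the length trend removed, Unc13a (0.91) and Lmtk2 (0.87) were still the closest for Cacna1a and Cacna1i, while Cacna1e was closest to Sphkap (0.87) and Cacna1h to Gria1 (0.94), an AMPA receptor subunit. These are descriptions over libraries that share mice.

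The beta and alpha2delta subunits join the alpha1 chain in native high-voltage-activated channels. Of 4 beta subunits, with lengths of 3015 to 8682 bp, 0 were under an unadjusted p of 0.05 after R55, and the median log2 fold change was 0.00. Cacnb1 was at -0.03, Cacnb2 at -0.13, Cacnb3, the most abundant at 105 FPKM, at 0.13 and Cacnb4 at 0.03. Of 4 alpha2delta subunits 3 were tested and 0 were under that threshold, with Cacna2d1, a target of gabapentin, at -0.28 (limma adjusted p = 0.604), Cacna2d2 at -0.01 and Cacna2d3 at -0.09. These 3 were between 3695 and 7493 bp long, shorter than every alpha1 member. Of 8 genes named as gamma subunits, whose place in these channels was not examined, 6 were tested and 0 were under the threshold. They lay between -0.29 (Cacng8) and 0.14 (Cacng3), with Cacng5 at -0.07 and Cacng7 at 0.09. After R33, 0 genes of these 3 groups were under it.

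Of 10 presynaptic partners of Cav2 channels, 2 had lower and 0 higher values with R55 by the unadjusted p (median -0.02). These were the active-zone scaffolds Bsn (-0.35, limma adjusted p = 0.579) and Erc2 (-0.31, limma adjusted p = 0.557), while the syntaxin gene Stx1a (0.26) and Snap25 (0.19) had the highest values. Of 13 calcium signalling partners of L-type channels, 0 were under that threshold (median -0.05). They ran from -0.21 for Camk4 and -0.14 for Camk2b to 0.42 for Cabp1 (limma adjusted p = 0.589), which encodes a calcium-binding protein. Calcium release and clearance genes had the lowest median of these lists. Of 13 genes 12 were tested, 4 were lower and 0 higher at an unadjusted p under 0.05, and the median was -0.18. Over all genes 3.74% were lower at this threshold, and of the genes between 7929 and 14774 bp 27.2%, while Ryr2, Slc8a1 and Ryr3 (15441 bp) of this list are longer still. Slc8a1, a sodium-calcium exchanger, was at -0.55 (limma adjusted p = 0.309). Ryr2, a ryanodine receptor that releases calcium from internal stores, fell by 0.50 on the log2 scale (limma adjusted p = 0.0322) and was the only gene called of all lists. Its adjusted limma p was 0.769 with the replicate block, 0.386 with 1 value per mouse and 0.59 with the length trend removed, and between 0.00676 (without R33 mouse AD) and 0.417 (without vehicle mouse M) with a mouse left out. Atp2b2 (0.08) and Slc8a3 (-0.02) had the highest values. With the length trend removed, Ryr2 (16813 bp) was at -0.24 and Slc8a1 (18713 bp) at -0.26. After R33, 2 presynaptic partners and 3 release and clearance genes were lower at an unadjusted p under 0.05, with Ryr2 at -0.36 (limma adjusted p = 0.587). After R33, 2.68% of all genes were lower at this threshold, and 15.7% of those between 7929 and 14774 bp.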

How the data were processed

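Poly(A) RNA of 27 libraries from 14 mice was used. The authors extracted total RNA, made stranded mRNA libraries and used HISAT2 to align the read pairs to GRCm39. The authors deposited 1 table of FPKM, with a row per gene symbol and 32 libraries. The counting tool and annotation are not given in the sources used here. The authors' DESeq2 results are not in the file used, and 5 libraries of the table were not used here. Non-zero FPKM could be turned back into fragments and gene lengths, with 100% of them whole within 0.01. Counting limits the precision of members little, at 642 or more fragments per library.

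Tests used log2(FPKM + 1) of genes averaging 1 FPKM or more, in limma 3.58.1 (R 4.3.3, statmod 1.5.0), with an additive treatment and hemisphere model, an intensity trend and two-sided moderated tests adjusted by Benjamini-Hochberg. A model with 6 group means gave the contrasts within hemispheres. The mouse is not a term, so libraries of a mouse count as separate, and the labels do not say whether mice shared litters or days. Hemispheres were paired by the mouse named in both titles. Their deviations from group means correlated at 0.394 on average (-0.0787 to 0.648, 13 mice), and the replicate block used the fitted correlation of 0.347 in the additive model and 0.362 in the model with 6 group means. Length and GC trends were removed per library by lowess (span 0.3), with GC known for 97.6% of tested genes. The rest was done in Python 3.11.15 (matplotlib 3.10.9, scipy 1.17.1, pandas 2.3.3, numpy 2.4.6), with 100000 resamples for correlations. The limma script was tested on simulated data.

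The members and gene lists were chosen with earlier results of these data known. All members were named, with each tested beta and alpha2delta subunit, at most the 2 lowest and 2 highest genes of each other list, called genes of these lists, and the genes most like the members by Pearson r. Alternatives were other size factors, no filter, a pseudocount of 0.1, the replicate block, 1 value per mouse, subsets of mice, the letters of the mouse label as a covariate, length and GC trends, limma voom on recovered fragments and each mouse left out. Length removal together with the replicate block was added after seeing the data. Some items of the model and gene lists are not reported here.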

Additional observations from a re-analysis of the deposited data

Results flagged for a closer look

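Of 48 sets of libraries (8 members in 6 groups of treatment and hemisphere), 5 had a library with an unusually large gap to the nearest of the others. Chance flags about 1 in 20 groups. Mouse AD of the R33 group gave 2 of them in its injected hemisphere. It had 4.96 FPKM of Cacna1e against 11.2 to 12.5 FPKM in the other 4 libraries, and 2.66 FPKM of Cacna1c against 4.64 to 4.77 FPKM. In the injected hemisphere of vehicle mouse AH Cacna1d measured 3.53 FPKM against 4.47 to 4.56 FPKM in the other 3. Cacna1g measured 8.14 FPKM in the injected hemisphere of R55 mouse AA against 10.6 to 11.5 FPKM. Cacna1h measured 5.68 FPKM in the contralateral hemisphere of R33 mouse N against 4.26 to 4.42 FPKM.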

How the results depend on the processing

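Percentages in brackets are the share of all genes past the same threshold in the same direction. For R55 against vehicle the members' median of -0.26 moved to -0.093 with the length trend removed, with or without the replicate block. The count of called members, 0, became 1 (Cacna1e) with only the compared treatments (0.0926%), 1 with only one-letter mice (0.0385%) and 0 to 1 (without R33 mouse AD, 0.386%) with a mouse left out. The 5 members at an unadjusted p under 0.05 became 3 with the replicate block of the mouse (1.99%), 3 with 1 value per mouse (1.79%), 2 with the length trend removed (3.61%), 2 with that and the replicate block (1.55%), and 3 (without R55 mouse AB, 2.47%) to 5 with a mouse left out. For R33 the 4 members became 2 with one-letter mice (2%), 2 with the length trend removed (2.47%), 2 with that and the replicate block (0.994%), and 2 (without vehicle mouse L, 1.67%, or R33 mouse AD, 1.7%) to 6 (without R33 mouse O, 3.8%). For R55 against R33, 0 lower members became 2 with one-letter mice (2.02%) and 0 to 1 (without R33 mouse AD, 3.98%) with a mouse left out. For the difference of the R55 effect between hemispheres, 0 higher members became 1 with the replicate block (2.44%), 1 with one-letter mice (0.431%) and 0 to 2 (without R33 mouse AD, 1.57%). The cause was not tested. Of 528 single values under alternatives, which hold only the lowest and the highest estimate of the fits with a mouse left out, 525 stayed on their side of the threshold and kept their sign or moved by less than 1 SE. Cacna1e after R55 passed it with only the compared treatments and with only one-letter mice, and Cacna1i after R55 moved to 0.12 in one-letter mice. No member passed the threshold in the main fits, so this count says little about how far sizes moved. Cacna1c after R55 counted as unchanged, though it went from -0.27 to -0.04 with the length trend removed. The order of levels gave 5 to 6 passing pairs. With the replicate block, as in the main fits, no member was called at an adjusted p under 0.05, so there was no call to lose. The fits that called a member were not repeated with the block.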

Other observations

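The table also holds the alpha1 genes of retina and skeletal muscle, which were below the filter and not tested. Cacna1f was between 0.0207 and 0.104 FPKM in single libraries and Cacna1s between 0.0834 and 0.281 FPKM. Group means of Cacna1f lay between 0.0382 and 0.0733 FPKM and those of Cacna1s between 0.121 and 0.19 FPKM.

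Of the cell type markers, 2 of 6 GABAergic markers had higher values after R55 at an unadjusted p under 0.05 (4.71% of all genes), Pvalb (0.47, limma adjusted p = 0.552) and Vip (0.35, limma adjusted p = 0.552), both named after their values were seen. The list's sum ran from 461 to 566 FPKM in vehicle, from 473 to 713 FPKM in R33 and from 451 to 666 FPKM in R55 mice. Of 5 astrocyte markers 1 had a higher value at that threshold. Hba-a1, Hba-a2, Hbb-bs and Hbb-bt were listed at 0 in every library. All 5 striatum markers had lower estimates after R55 (median -0.26) and higher ones after R33 (0.17), with 0 under an unadjusted p of 0.05 in each.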
